A study of Mus musculus with 6 samples.

Results

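The 49 genes described here encode proteins of the lysosome and were chosen by name from the 41388 Ensembl genes of the deposited table, of which 12693 had a mean of at least 0.5 RPKM and were tested. They comprise 15 genes of the V-ATPase, 27 hydrolases, and 7 genes of membrane proteins and non-enzyme lumenal proteins, and all 49 passed the filter. RNA-seq was performed on primary murine hepatocytes of C57BL/6J mice, which were treated for 24 h with adenovirus at 1000000 viral particles per 1000000 cells. In 3 libraries (replicates 1, 2 and 3) the virus encoded β-gal (beta galactosidase), the control protein, and in the other 3 (replicates 7, 8 and 9) it encoded Aloxe3, a lipoxygenase-family enzyme. Thus, both groups carried virus, all cells came from collagenase-digested liver of one strain, and no library without virus was analysed here. The labels do not say whether the libraries of a group came from separate cultures or animals, so p-values measure the spread between these libraries, which may be technical.

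Lysosomes are the acidic organelles in which hepatocytes break down proteins, glycogen, glycolipids and lipoprotein lipid delivered by endocytosis and autophagy. The V-ATPase, a rotary proton pump, keeps their lumen acidic: its V1 sector hydrolyzes ATP in the cytosol, and its V0 sector carries protons across the membrane. Most hydrolases work best at this acidic pH, and transcription factors of the MiT/TFE family, such as TFEB, are known to act on many lysosomal genes through an E-box of the CLEAR type.

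An RPKM value divides the reads of a gene by its length and by the size of the library. Levels of a gene can then be set beside each other between libraries. Levels of different genes also depend on the length used and on which reads could be assigned, and compare only roughly. The library sizes behind the scaling were 29575553 to 32431318 reads in the β-gal libraries and 25521908 to 30399198 reads in the Aloxe3 libraries. Aloxe3 was at 2.04, 2.06 and 1.74 RPKM in the β-gal libraries and 42.3, 45.8 and 56.3 RPKM in the Aloxe3 libraries (log2 fold change 4.05, SE 0.10, limma adjusted p = 4.7e-06). Hepatocyte markers summed to 4963 to 5009 RPKM in the β-gal and 4790 to 4935 RPKM in the Aloxe3 libraries, of which Alb, encoding albumin, made up most. Single hepatocyte markers lay in both directions: Ttr, encoding transthyretin, fell (log2 fold change -0.30, limma adjusted p = 0.0448), Apoa1 and Serpina1a were lower at -0.10 and -0.11 and Cps1, a urea cycle enzyme, higher at 0.33, all 3 at an unadjusted p under 0.05 only. Tat, a marker of mature hepatocytes that was too low to be tested, was at 0.193 to 0.346 RPKM in the β-gal and 0.438 to 0.661 RPKM in the Aloxe3 libraries. The part of these markers in the results on lysosomal genes was not tested. Markers of cholangiocytes summed to 1509 to 1593 and 1577 to 1716 RPKM, nearly all of it Spp1. Endothelial markers summed to 30.6 to 34.8 and 30.1 to 35.2 RPKM, and those of stellate cells and fibroblasts to 3.47 to 4.03 and 3.63 to 3.95 RPKM, with Lrat at 0. Aloxe3 replicate 9 stood apart from its group: reads of the mitochondrial genome were 3.70% of its total against 2.76% to 2.98% in the other 5 libraries, and the chi-square of its reads against replicates 7 and 8, divided by the degrees of freedom, was 8.99 and 9.82, where the other pairs within groups had 3.47 to 5.46. Without it, the log2 fold change of 35 of the 49 genes moved by over 1.5 times or changed sign (9 genes), and it was higher in 44 of 49. Single libraries of both groups moved small differences: with each of the 6 libraries left out in turn, 40 of 49 genes moved by over 1.5 times under at least 1 of these fits and 24 changed sign. The lowest and highest log2 fold change over these 6 fits is therefore given as the leave-one-out range.

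The E-box of the CLEAR type was looked for in the promoters of these genes. As it is already known from many lysosomal genes, its share here is not an independent result. RefSeq promoter windows (GRCm38.p6), from 250 bases before to 50 bases after a start site, were at hand for 41 of the 49 genes, and Atp6v1h, Atp6v1b2, Atp6v1c1, Atp6v1g1, Ctsb, Ctsh, Asah1 and Npc1 had none here. The letters TCACGTGA, which read the same on both strands, occurred in a window of 7 of these 41 genes (17.1%), against 1.13% of the 27025 genes with a window and 2.28% of the 9255 tested genes with one. The shorter core CACGTG, contained in it and also its own reverse complement, occurred in 15 of the 41 genes (36.6%), against 8.09% of all genes and 12.0% of tested genes. By class, the longer form was found in 3 of 11 V-ATPase genes (Atp6v0d1, Atp6v0e and Atp6v1a), in 3 of 24 hydrolase genes (Gla, Ctsa and Ctsd) and in 1 of 6 others (Mcoln1). Such a match describes the letters of the window and is not evidence of binding.

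Shown are 120 bases, from 100 before to 20 after the start site, of 6 genes that hold the core there and of 1 V-ATPase gene, Atp6v1f, that lacks it in its window. Capitals mark CACGTG and, where present, the flanking T and A of the longer form, and each sequence runs 5′ to 3′ on the strand of its gene. Those of Lamp1, Mcoln1, Ctsa, Atp6v0e and Atp6v1f are on the plus strand of chr8:13159061-13159180, chr8:3500419-3500538, chr2:164833673-164833792, chr17:26676296-26676415 and chr6:29467683-29467802. Those of Ctsd and Atp6v0d1 are on the minus strand of chr7:142387808-142387927 and chr8:105566045-105566164.
Lamp1: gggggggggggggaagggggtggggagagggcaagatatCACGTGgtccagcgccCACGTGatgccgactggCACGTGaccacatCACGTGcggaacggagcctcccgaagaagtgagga
Mcoln1: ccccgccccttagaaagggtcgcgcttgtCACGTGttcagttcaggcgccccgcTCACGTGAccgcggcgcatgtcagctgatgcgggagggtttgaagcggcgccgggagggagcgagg
Ctsa: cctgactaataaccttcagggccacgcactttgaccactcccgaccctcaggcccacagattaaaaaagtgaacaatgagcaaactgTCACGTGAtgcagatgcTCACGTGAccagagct
Ctsd: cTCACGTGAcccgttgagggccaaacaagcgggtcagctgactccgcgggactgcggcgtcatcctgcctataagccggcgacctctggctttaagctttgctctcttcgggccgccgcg
Atp6v0d1: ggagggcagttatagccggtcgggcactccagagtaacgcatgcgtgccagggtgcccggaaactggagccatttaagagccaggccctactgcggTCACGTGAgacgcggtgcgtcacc
Atp6v0e: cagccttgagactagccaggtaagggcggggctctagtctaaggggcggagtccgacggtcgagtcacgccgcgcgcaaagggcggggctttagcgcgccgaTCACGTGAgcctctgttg
Atp6v1f: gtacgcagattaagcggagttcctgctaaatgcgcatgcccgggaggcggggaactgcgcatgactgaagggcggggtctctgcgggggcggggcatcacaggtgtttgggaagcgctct

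Lamp1 held 4 copies of the core, beginning 61, 45, 28 and 15 bases before the start site. The 2 copies of the longer form in Ctsa lie on either side of the start site in 1 of its 2 windows, and the other window held none. In Ctsd the copy shown begins 98 bases before the start and another copy of the core, outside the stretch shown, 245 bases before it. In the comparison of Aloxe3 with β-gal, the 15 genes with the core had a median log2 fold change of -0.023, ranging from -0.10 to 0.055, and the 26 genes with a window but no core had a median of -0.015, ranging from -0.24 to 0.091. Without Aloxe3 replicate 9, which stood apart, both medians lay above 0, at 0.016 and 0.0059. Median levels in the β-gal libraries were 48.3 and 34.8 RPKM, respectively.

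As a group, the 49 listed genes were expressed at high level in these hepatocytes. In the β-gal libraries the 49 genes had a median of 37.7 RPKM, against 6.85 RPKM over all tested genes, and their reads made up 1.46% to 1.48% of the library. The share was 1.39% to 1.47% in the Aloxe3 libraries, lowest in replicate 9. Further lysosomal genes outside the 49 lay lower, with a median of 10.8 RPKM in the β-gal libraries over the 69 tested. By mean level over the 6 libraries, Ctsl, a cysteine endopeptidase, ranked 42nd of all genes, ahead of Ctsz, a lysosomal carboxypeptidase, at 44th, and Idua, which removes iduronic acid from glycosaminoglycans, was the lowest of the 49 and ranked 8747th.

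Levels of the V-ATPase genes lay much closer to each other than those of the hydrolases. In the β-gal libraries V-ATPase genes ranged from 18.3 ± 0.169 RPKM (SD, n = 3) for Atp6v1b2, the nucleotide-binding B subunit, to 117 ± 2.11 RPKM for Atp6v1e1, a subunit of the peripheral stalk, a ratio of 6.41. The hydrolases ranged from 3.00 ± 0.237 RPKM for Idua to 784 ± 25.6 RPKM for Ctsz, a ratio of 261. The SD of log2(RPKM) over genes was 0.87 to 0.92 for the V-ATPase in the 6 libraries and 2.33 to 2.36 for the hydrolases, with 2.14 to 2.19 over all tested genes. Membrane and non-enzyme lumenal genes ranged from 31.3 ± 1.90 RPKM for Mcoln1 to 638 ± 22.0 RPKM for Lamp1.

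**Figure D1:**
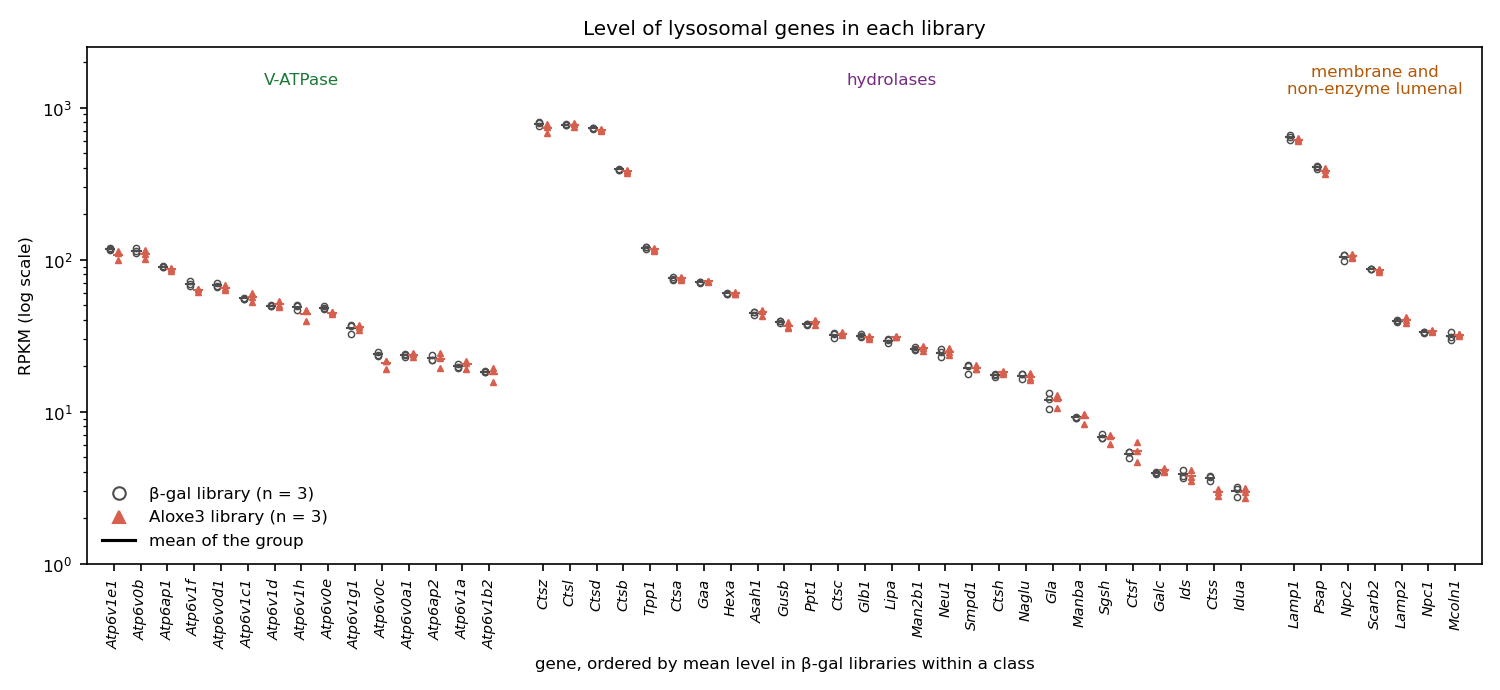
RPKM (log axis) of the 49 lysosomal genes in each β-gal library (circles) and Aloxe3 library (triangles), with the mean of each group as a short line and genes ordered by level within a class. The V-ATPase genes span a ratio of 6.41 and the hydrolases one of 261, and the symbols of both groups nearly coincide for most genes.

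Among V-ATPase genes, Atp6v1e1 was followed by Atp6v0b, a proteolipid of the rotor ring (115 RPKM), Atp6ap1, an accessory protein of assembly (89.7 RPKM), and Atp6v1f and Atp6v0d1, which belong to the central stalk (69.4 and 67.7 RPKM). Atp6v1c1, Atp6v1d, Atp6v1h and Atp6v0e lay between 48.3 and 55.5 RPKM. Atp6v1g1 was at 35.5 RPKM, and Atp6v0c, Atp6v0a1, Atp6ap2, Atp6v1a (the catalytic subunit) and Atp6v1b2 lay between 18.3 and 23.8 RPKM. Atp6v0c-ps2, a pseudogene that shares sequence with Atp6v0c, was listed at 42.0 to 46.6 RPKM in the β-gal libraries. Its part in the place of Atp6v0c in this order was not tested. In 6 of the 14 neighbouring pairs of this order the β-gal libraries overlapped, so that the order within these pairs was not resolved. As subunits differ in copy number within the pump, mRNA levels do not give its composition.

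Several V-ATPase subunits have more than 1 gene, and for most of these subunits 1 gene gave nearly all of the level. Atp6v0d1 gave 99.7% to 99.9% of the summed RPKM of the d subunit genes in the β-gal libraries. There, Atp6v1c1 gave 99.85% to 99.95% of the C subunit, and Atp6v1b2 99.9% to 100% of the B subunit. Atp6v1b1, the B subunit of renal intercalated cells, did not exceed 0.0407 RPKM in any library, and Atp6v1g3 was listed at 0 in all 6. Atp6v0e2 gave 5.66% to 5.77% of the e subunit, and Atp6v1g2 gave 1.97% to 2.98% of the G subunit. The a subunit, which lines the proton path and directs the pump to its membrane, differed from these. Atp6v0a1, the only a subunit gene among the 49, gave 23.3% to 24.7% of its summed RPKM, below Atp6v0a2 (39.6% to 41.8%) and Tcirg1 (34.9% to 35.6%), the isoform of osteoclasts, while Atp6v0a4 gave at most 0.121%. These shares were 24.1% to 26.0%, 38.1% to 39.1% and 34.9% to 37.8% for the first 3 genes in the Aloxe3 libraries.

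**Figure D2:**
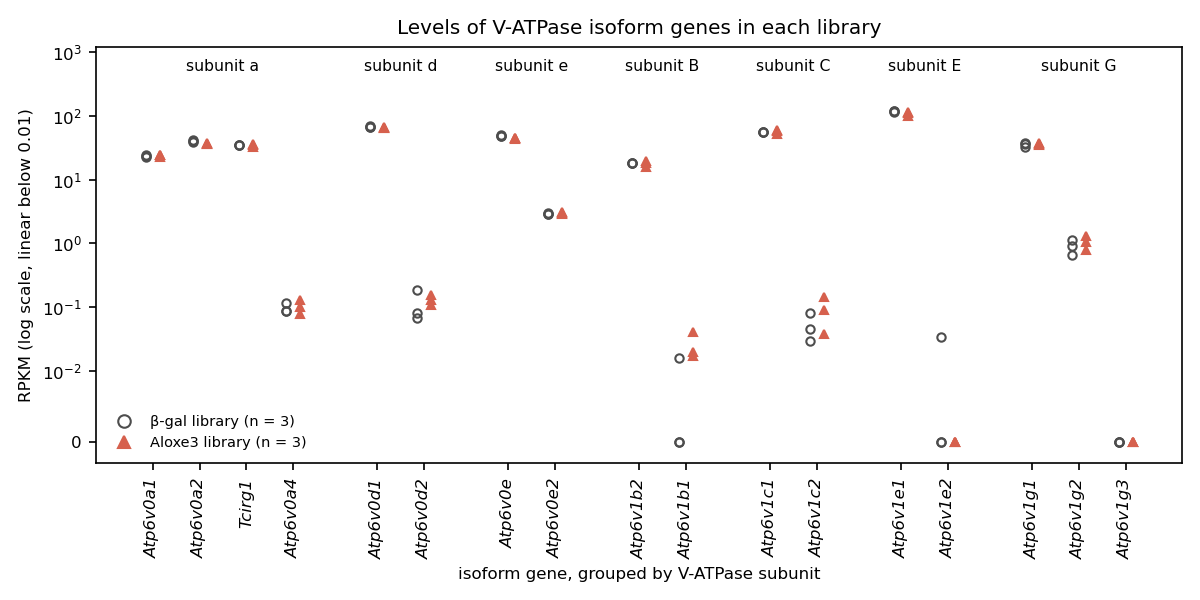
RPKM (log axis, linear below 0.01) of isoform genes of 7 V-ATPase subunits in each β-gal library (circles) and Aloxe3 library (triangles). For subunits d, B, C, E and G 1 gene stands far above the rest, whereas Atp6v0a1, Atp6v0a2 and Tcirg1 of subunit a lie close together.

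Proteases led the hydrolases. Ctsz, Ctsl, Ctsd and Ctsb together gave 48.3% to 48.8% of the summed RPKM of the 49 genes, and with Lamp1 and Psap 67.2% to 68.0%. Tpp1, a tripeptidyl peptidase, and Ctsa, the protective protein of β-galactosidase and neuraminidase, followed at 120 and 75.2 RPKM. The highest glycosidase was Gaa, which degrades glycogen (70.9 RPKM), ahead of Hexa (60.0 RPKM) and Gusb (39.0 RPKM). Of lipid hydrolases, Asah1 (acid ceramidase), Ppt1 (palmitoyl-protein thioesterase), Lipa (acid lipase) and Smpd1 (acid sphingomyelinase) were at 44.6, 37.7, 29.2 and 19.2 RPKM. Glb1, Man2b1, Neu1, Ctsc, Ctsh, Naglu and Gla lay between 12.0 and 32.0 RPKM. The lowest were Manba, Sgsh, Ctsf, Galc, Ids, Ctss and Idua, between 3.00 and 9.17 RPKM. Neighbours overlapped in the β-gal libraries in 6 of 26 pairs. Among the other proteins, Psap, the precursor of the saposins, was at 405 RPKM, Npc2 and Npc1, which pass cholesterol out of the lysosome, were at 104 and 33.2 RPKM, and Scarb2 and Lamp2, both membrane proteins, were at 87.0 and 39.5 RPKM.

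None of the 49 genes passed an adjusted p of 0.05 in the comparison of Aloxe3 with β-gal, where 0.394% of all tested genes did (50 of 12693, with 0.355% higher and 0.0394% lower). Adjusted p ranged from 0.161 for Ctss to 0.994 for Ctsl (limma on log2(RPKM + 1), Benjamini-Hochberg over all tested genes). At an unadjusted p under 0.05, 6 of 49 genes were counted, against 12.7% of all tested genes (7.31% higher and 5.42% lower): Lipa was higher, and Atp6v0c, Atp6v0e, Atp6v1f, Atp6v1h and Ctss were lower. Libraries of both groups did not overlap in 10 of 49 genes, 3 higher and 7 lower, against 19.9% of all tested genes (11.2% higher and 8.71% lower). Over the 49 genes the limits of the 95% intervals reached from a fold of 0.777 to 1.201 on the RPKM + 1 scale, so that larger changes of single genes lay outside these intervals.

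**Figure D3:**
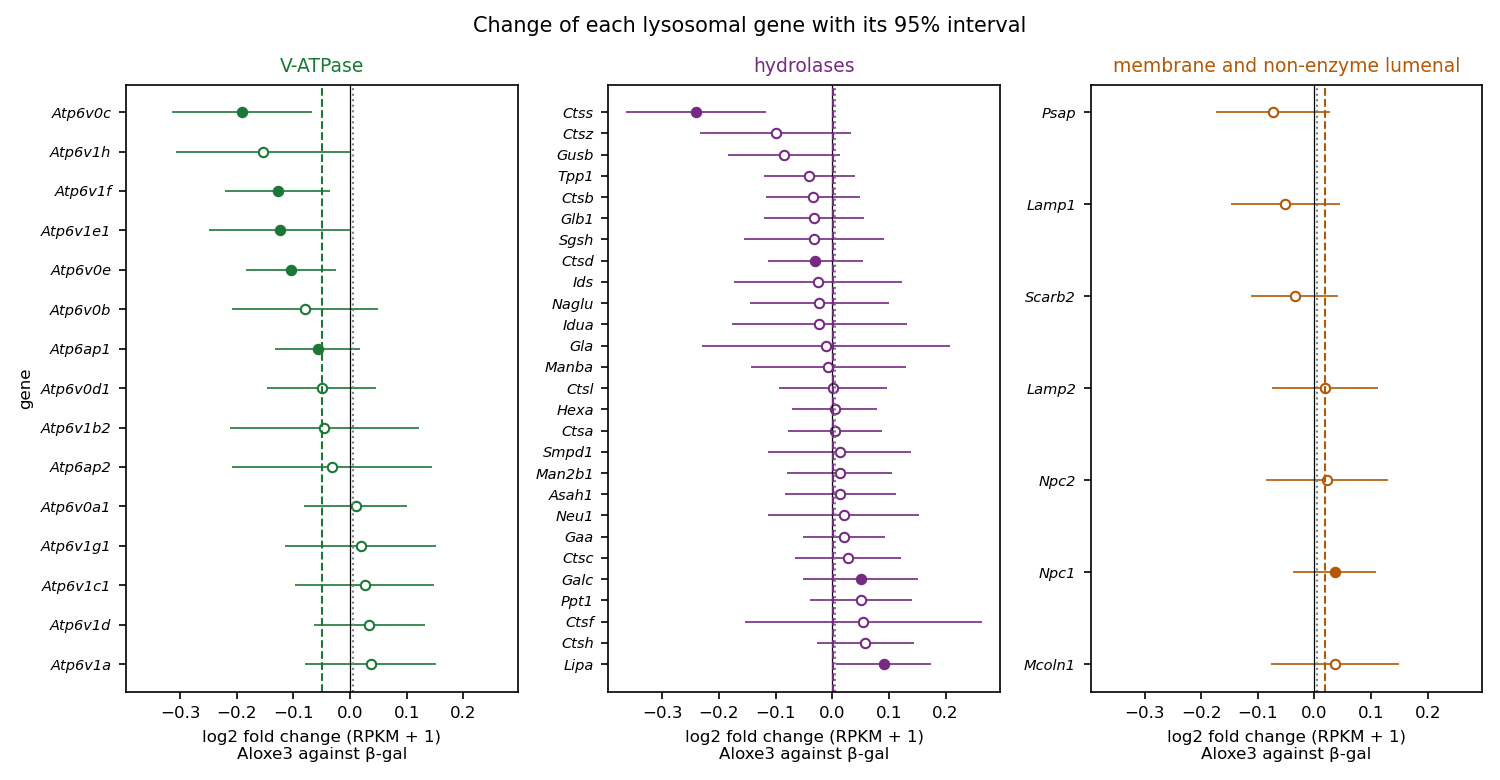
Log2 fold change (RPKM + 1, Aloxe3 against β-gal, n = 3 per group) of each lysosomal gene with its 95% interval from limma, by class. Filled points mark genes whose groups do not overlap, dashed lines the class median (-0.050 for the V-ATPase), and the dotted line the median of all tested genes, which lies at 0.0049.

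By class, more V-ATPase genes lay below 0 than above it, whereas the balance of the hydrolases turned with the libraries used. Below 0 were 13 of 27 hydrolases as fitted, 17 with the GC correction, 9 without Aloxe3 replicate 9 and 18 without Aloxe3 replicate 7. Of the 15 V-ATPase genes 10 had a log2 fold change below 0, with a median of -0.050 and a range of -0.19 to 0.036, and 5 of 15 did not overlap and were lower, against 8.71% of all tested genes. The hydrolases had a median of 0.0014, which lay between -0.017 and 0.028 whichever library was left out, and a range of -0.24 to 0.091, with 2 non-overlapping genes in each direction. Of the 7 membrane and non-enzyme lumenal genes 3 were below 0, with a median of 0.018. This median was below 0 with the GC correction, and its sign changed with the library left out. Over all tested genes 47.6% were below 0, 52.4% were above 0 and the median was 0.0049. Highly expressed genes were also more often below 0: of the 3844 tested genes with a mean of 15 RPKM or more, a range in which all V-ATPase genes lie, 60.7% were below 0 and the median was -0.020 (58.0% and -0.013 without Aloxe3 replicate 9). Subunits of V0 had a median of -0.080 (4 of 5 below 0), which was -0.030 without Aloxe3 replicate 9 and -0.052 without β-gal replicate 2. Subunits of V1 had a median of -0.013 (4 of 8 below 0), which lay between -0.062 and 0.044 whichever library was left out, above 0 only without Aloxe3 replicate 9.

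The V-ATPase median varied between the Aloxe3 libraries by more than it differed from the control. Relative to the mean of the β-gal libraries, the median of the 15 genes on the log2(RPKM + 1) scale was -0.012, 0.025 and -0.011 in the β-gal libraries and -0.058, 0.0045 and -0.14 in Aloxe3 replicates 7, 8 and 9, so that the groups overlapped. For the hydrolases it was -0.014, 0.010 and 0.012 against 0.029, 0.015 and -0.053. The difference of both medians was 0.0028, 0.015 and -0.023 in the β-gal libraries and -0.086, -0.010 and -0.086 in the Aloxe3 libraries, again with an overlap. The Aloxe3 libraries averaged -0.061 ± 0.044 (SD, n = 3) in this difference, with an SD of 0.019 in the β-gal libraries. In replicate 9, 14 of 15 V-ATPase genes and 22 of 27 hydrolases were under their β-gal mean, whereas in replicates 7 and 8 it was 8 and 7 of 15, and 8 and 11 of 27. Replicate 9 held the lowest value of the 6 libraries in 13 of 15 V-ATPase genes and 13 of 27 hydrolases, against 30.1% of all tested genes. Without replicate 9 the V-ATPase median log2 fold change was -0.029, with 9 of 15 genes below 0, that of the hydrolases was 0.028, and that of all tested genes was 0.012. The difference between the V-ATPase and hydrolase medians of log2 fold change was -0.052 with this library and -0.058 without it, and it lay between -0.065 and -0.040 whichever library was left out.

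**Figure D4:**
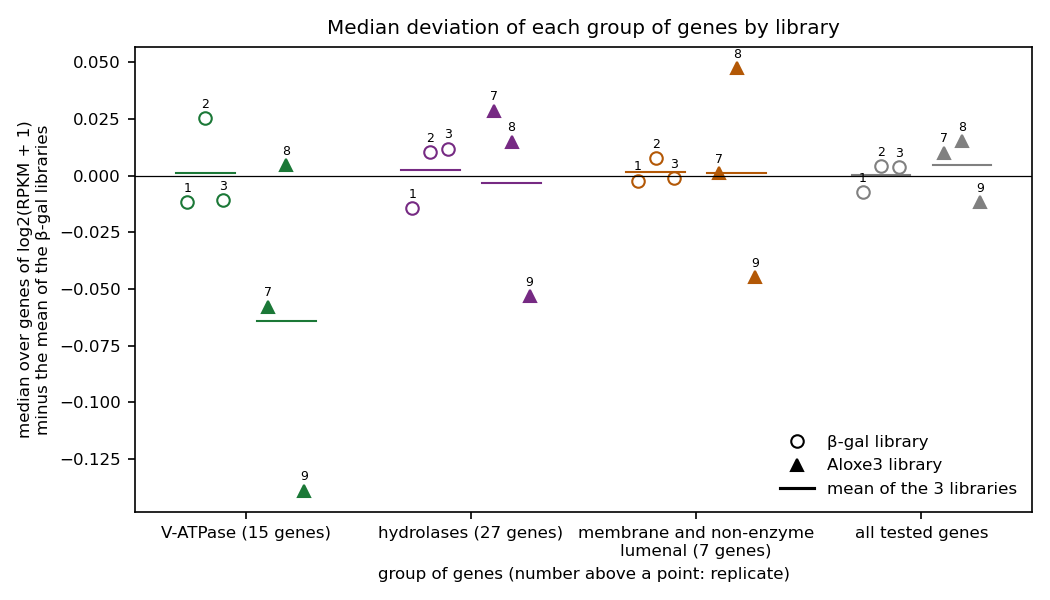
Median over the genes of a class of log2(RPKM + 1) minus the mean of the β-gal libraries, for each library (circles, β-gal; triangles, Aloxe3; numbers, replicate) with the mean of 3 libraries as a line. For the V-ATPase, Aloxe3 replicates 7 and 9 lie at -0.058 and -0.14 and replicate 8 lies among the β-gal libraries at 0.0045.

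Genes of the V0 sector held the largest difference of the V-ATPase. Atp6v0c, the proteolipid that forms most of the rotor ring, was at 24.5, 23.6 and 23.3 RPKM in the β-gal libraries and 21.6, 21.6 and 19.1 RPKM in the Aloxe3 libraries (log2 fold change -0.19, SE 0.053, limma adjusted p = 0.254, leave-one-out -0.22 to -0.14). All 3 Aloxe3 libraries lay below all β-gal libraries, and replicate 9 lay lowest. Its reads are not fully separable, as 10.8% of its transcript stretches of 50 bases also occur in the transcripts of its processed pseudogenes, mostly Atp6v0c-ps2. The reads counted for Atp6v0c-ps2 were 21.7, 19.5 and 19.5 of 1000000 reads in the β-gal libraries and 20.5, 17.2 and 13.3 of 1000000 in the Aloxe3 libraries, which overlap. Summed over both, they were 105, 99.5 and 98.5 of 1000000 reads in the β-gal and 93.8, 90.2 and 78.1 of 1000000 in the Aloxe3 libraries, without overlap.

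Atp6v0e, a small membrane subunit of V0, was at 47.9, 49.3 and 47.6 RPKM in the β-gal libraries and 45.4, 45.5 and 43.8 RPKM in the Aloxe3 libraries (log2 fold change -0.10, SE 0.034, limma adjusted p = 0.297, leave-one-out -0.11 to -0.086). Again the groups did not overlap. Atp6v0b was at 114, 119 and 111 RPKM in the β-gal libraries and 109, 116 and 101 RPKM in the Aloxe3 libraries (log2 fold change -0.080, SE 0.055, limma adjusted p = 0.578, leave-one-out -0.13 to -0.029). Here Aloxe3 replicate 8 lay among the β-gal libraries. The other V0 genes, Atp6v0d1 and Atp6v0a1, had log2 fold changes of -0.050 (leave-one-out -0.077 to -0.022) and 0.0097 (leave-one-out -0.0089 without Aloxe3 replicate 9 to 0.037 without Aloxe3 replicate 8).

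In the V1 sector, 4 of 8 genes were below 0, and Atp6v1f, Atp6v1e1 and Atp6v1h were the lowest of them. Atp6v1f was at 66.7, 71.9 and 69.4 RPKM in the β-gal libraries and 64.3, 64.2 and 61.6 RPKM in the Aloxe3 libraries (log2 fold change -0.13, SE 0.040, limma adjusted p = 0.288, leave-one-out -0.15 to -0.10). Atp6v1e1, of the peripheral stalk, was at 119, 117 and 115 RPKM in the β-gal libraries and 111, 114 and 99.0 RPKM in the Aloxe3 libraries (log2 fold change -0.12, SE 0.054, limma adjusted p = 0.400, leave-one-out -0.16 to -0.064). Both had groups that did not overlap, and Atp6v1e1 was at -0.064 without replicate 9. Atp6v1h, known to regulate the coupling of V1 to V0, was at 50.6, 49.9 and 46.6 RPKM in the β-gal libraries and 45.6, 46.8 and 39.7 RPKM in the Aloxe3 libraries (log2 fold change -0.15, SE 0.066, limma adjusted p = 0.392, leave-one-out -0.20 to -0.082). Its unadjusted p was 0.0495, although Aloxe3 replicate 8 exceeded the lowest β-gal library. Without replicate 9 its log2 fold change was -0.082.

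Subunits of the catalytic head and the rest of V1 had no unadjusted p under 0.05. Atp6v1a was at 19.4, 19.8 and 20.6 RPKM in the β-gal libraries and 20.9, 21.4 and 19.1 RPKM in the Aloxe3 libraries (log2 fold change 0.036, SE 0.050, limma adjusted p = 0.799, leave-one-out 0.0044 to 0.083). Atp6v1b2 was at 18.1, 18.4 and 18.4 RPKM in the β-gal libraries and 18.4, 19.3 and 15.6 RPKM in the Aloxe3 libraries (log2 fold change -0.045, SE 0.072, limma adjusted p = 0.829, leave-one-out -0.10 without Aloxe3 replicate 8 to 0.042 without Aloxe3 replicate 9), and replicate 9 alone lay below the β-gal libraries. Atp6v1c1, which links the stalks and V0, was at 55.3, 55.0 and 56.2 RPKM in the β-gal libraries and 57.2, 60.4 and 52.3 RPKM in the Aloxe3 libraries (log2 fold change 0.026, SE 0.053, limma adjusted p = 0.875, leave-one-out -0.021 without Aloxe3 replicate 8 to 0.081 without Aloxe3 replicate 9). Atp6v1d, the central rotor shaft, was at 49.2, 50.7 and 49.4 RPKM in the β-gal libraries and 50.6, 53.6 and 48.8 RPKM in the Aloxe3 libraries (log2 fold change 0.034, SE 0.042, limma adjusted p = 0.772, leave-one-out -0.0013 without Aloxe3 replicate 8 to 0.065 without Aloxe3 replicate 9). In both, replicate 8 was highest and replicate 9 lowest of the 6 libraries. Atp6v1g1 had a log2 fold change of 0.019 (leave-one-out -0.040 without β-gal replicate 1 to 0.055 without β-gal replicate 3), and 19.2% of its stretches of 50 bases also occur in the transcripts of other genes, mainly Gm13453.

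Both accessory proteins were below 0, except that Atp6ap2 lay above 0 without Aloxe3 replicate 9 (0.052) and without β-gal replicate 2. Atp6ap1 was at 89.0, 90.8 and 89.4 RPKM in the β-gal libraries and 86.1, 87.9 and 84.5 RPKM in the Aloxe3 libraries (log2 fold change -0.057, SE 0.033, limma adjusted p = 0.510, leave-one-out -0.071 to -0.044). The groups did not overlap, by a narrow margin. Atp6ap2, the prorenin receptor, had a log2 fold change of -0.032, with a 95% interval of -0.21 to 0.14.

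**Figure D5:**
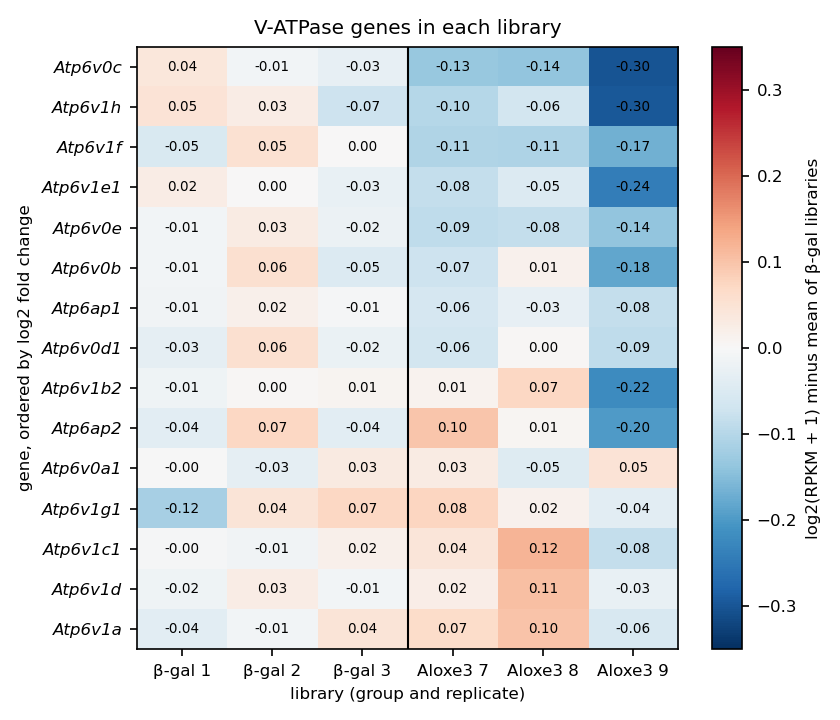
Log2(RPKM + 1) of the 15 V-ATPase genes in each library minus the mean of the β-gal libraries (color scale and printed values), with genes ordered by log2 fold change. Replicate 9 is the lowest column for 13 of 15 genes, and Atp6v0c, Atp6v1f, Atp6v1e1, Atp6v0e and Atp6ap1 are below every β-gal library in all 3 Aloxe3 libraries.

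Of the proteases, Ctss had the largest difference of the 49 genes. Ctss, a cysteine protease best known from antigen-presenting cells, was at 3.77, 3.75 and 3.49 RPKM in the β-gal libraries and 2.77, 3.10 and 2.98 RPKM in the Aloxe3 libraries (log2 fold change -0.24, SE 0.053, limma adjusted p = 0.161, leave-one-out -0.27 to -0.21). The groups did not overlap. At this level it rested on 96 to 165 reads a library. Markers of Kupffer cells and macrophages were present: the 11 markers, none of which was listed at 0 in all libraries, summed to 14.8 to 21.9 RPKM in the β-gal and 14.8 to 17.96 RPKM in the Aloxe3 libraries, and 6 of 8 tested ones were below 0, none at an unadjusted p under 0.05. Their part in the level of Ctss was not tested, and in bulk samples fewer cells of a type and less RNA per cell cannot be told apart.

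The most abundant proteases had log2 fold changes between -0.100 and 0.0014. Ctsz was at 808, 787 and 757 RPKM in the β-gal libraries and 743, 775 and 679 RPKM in the Aloxe3 libraries (log2 fold change -0.100, SE 0.057, limma adjusted p = 0.511, leave-one-out -0.14 to -0.047). Replicate 8 lay among the β-gal libraries. Ctsd, the main aspartic protease, was at 728, 727 and 734 RPKM in the β-gal libraries and 727, 716 and 702 RPKM in the Aloxe3 libraries (log2 fold change -0.030, SE 0.036, limma adjusted p = 0.773, leave-one-out -0.041 to -0.017). The groups did not overlap, the log2 fold change was above 0 with quantile normalization (0.034), and the mean of the Aloxe3 libraries was 0.980 of that of the β-gal libraries. Ctsl was at 769, 774 and 768 RPKM in the β-gal libraries and 777, 795 and 742 RPKM in the Aloxe3 libraries (log2 fold change 0.0014, SE 0.041, limma adjusted p = 0.994, leave-one-out -0.020 without Aloxe3 replicate 8 to 0.029 without Aloxe3 replicate 9), with groups that overlapped. Ctsb, Tpp1, Ctsa and Ctsc had log2 fold changes of -0.034, -0.040, 0.0048 and 0.027, and the leave-one-out ranges of Ctsa (-0.012 without β-gal replicate 3 to 0.025 without β-gal replicate 2) and Ctsc (-0.0030 without β-gal replicate 1 to 0.044 without β-gal replicate 2) held 0. On the higher side, Ctsh, an aminopeptidase, was at 17.0, 17.4 and 17.7 RPKM in the β-gal libraries and 17.7, 18.2 and 18.6 RPKM in the Aloxe3 libraries (log2 fold change 0.059, SE 0.037, limma adjusted p = 0.543, leave-one-out 0.042 to 0.076), and replicate 7 lay within the β-gal range. Ctsf was at 4.93, 5.40 and 5.41 RPKM in the β-gal libraries and 5.55, 6.33 and 4.67 RPKM in the Aloxe3 libraries (log2 fold change 0.055, SE 0.090, limma adjusted p = 0.838, leave-one-out -0.034 without Aloxe3 replicate 8 to 0.15 without Aloxe3 replicate 9), and the Aloxe3 libraries enclosed the β-gal libraries on either side.

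Glycosidases were spread around 0, with 6 of 11 below it as fitted and a median log2 fold change of -0.0068, but 3 of 11 below it without Aloxe3 replicate 9 and 4 of 11 without β-gal replicate 3. Gusb, β-glucuronidase, was at 39.6, 39.2 and 38.1 RPKM in the β-gal libraries and 38.7, 36.0 and 35.4 RPKM in the Aloxe3 libraries (log2 fold change -0.085, SE 0.042, limma adjusted p = 0.449, leave-one-out -0.12 to -0.061). Replicate 7 lay among the β-gal libraries. Galc, which removes galactose from galactosylceramide, was at 3.90, 3.99 and 3.96 RPKM in the β-gal libraries and 4.10, 4.29 and 3.99 RPKM in the Aloxe3 libraries (log2 fold change 0.050, SE 0.044, limma adjusted p = 0.668, leave-one-out 0.027 to 0.069). Its groups did not overlap, but the lowest Aloxe3 and the highest β-gal value were 3.9895 and 3.9854 RPKM. With the GC correction the log2 fold change of Galc was -0.0012. Idua was at 2.74, 3.10 and 3.18 RPKM in the β-gal libraries and 3.17, 2.95 and 2.71 RPKM in the Aloxe3 libraries (log2 fold change -0.023, SE 0.066, limma adjusted p = 0.916, leave-one-out -0.072 without β-gal replicate 1 to 0.021 without Aloxe3 replicate 9), with overlapping groups. Gaa, Gla, Glb1, Hexa, Man2b1, Manba, Naglu and Neu1 lay between -0.032 and 0.021, and with a library left out the lowest and highest of their values were those of Gla (-0.097 without β-gal replicate 1 to 0.067 without Aloxe3 replicate 9). The sulfatases Ids and Sgsh, which act on heparan sulfate, had log2 fold changes of -0.026 (leave-one-out -0.077 without Aloxe3 replicate 7 to 0.016 without Aloxe3 replicate 8) and -0.032 (leave-one-out -0.060 without Aloxe3 replicate 8 to 0.016 without Aloxe3 replicate 9).

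All 4 lipid hydrolases had a log2 fold change above 0 as fitted. Asah1 lay below 0 with the GC correction and without Aloxe3 replicate 7, Aloxe3 replicate 8 or β-gal replicate 2, and Smpd1 without Aloxe3 replicate 7 or β-gal replicate 1. Lipa, which frees cholesterol and fatty acids from the esters of endocytosed lipoproteins, was at 28.2, 29.4 and 30.0 RPKM in the β-gal libraries and 31.5, 31.1 and 30.9 RPKM in the Aloxe3 libraries (log2 fold change 0.091, SE 0.036, limma adjusted p = 0.357, leave-one-out 0.067 to 0.11). Its unadjusted p was 0.0364, and every Aloxe3 library exceeded every β-gal library. Ppt1, Asah1 and Smpd1 had log2 fold changes of 0.051, 0.014 and 0.013, with groups that overlapped.

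None of the membrane and non-enzyme lumenal genes had an unadjusted p under 0.05. Lamp1, a glycoprotein that lines the lysosomal membrane and the highest of these genes, was at 659, 641 and 615 RPKM in the β-gal libraries and 615, 627 and 604 RPKM in the Aloxe3 libraries (log2 fold change -0.051, SE 0.042, limma adjusted p = 0.640, leave-one-out -0.078 to -0.029). Psap was at 397, 410 and 408 RPKM in the β-gal libraries and 400, 389 and 366 RPKM in the Aloxe3 libraries (log2 fold change -0.073, SE 0.043, limma adjusted p = 0.528, leave-one-out -0.10 to -0.038). In both, at least 1 Aloxe3 library lay within the range of the β-gal libraries. Scarb2, the receptor that carries β-glucocerebrosidase, was at 87.2, 87.3 and 86.5 RPKM in the β-gal libraries and 85.6, 86.6 and 82.6 RPKM in the Aloxe3 libraries (log2 fold change -0.035, SE 0.033, limma adjusted p = 0.697, leave-one-out -0.049 to -0.016), and replicate 8 lay within the β-gal range.

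For cholesterol export, Npc1 was at 33.1, 33.3 and 33.2 RPKM in the β-gal libraries and 34.0, 34.6 and 33.5 RPKM in the Aloxe3 libraries (log2 fold change 0.036, SE 0.032, limma adjusted p = 0.672, leave-one-out 0.024 to 0.046). No β-gal library reached the lowest Aloxe3 library. Npc2, its soluble partner, was at 98.3, 107 and 106 RPKM in the β-gal libraries and 105, 110 and 102 RPKM in the Aloxe3 libraries (log2 fold change 0.023, SE 0.046, limma adjusted p = 0.876, leave-one-out -0.016 without β-gal replicate 1 to 0.044 without β-gal replicate 2), with overlapping groups. Mcoln1, a calcium channel of the lysosomal membrane, was at 29.6, 33.3 and 31.0 RPKM in the β-gal libraries and 31.3, 32.4 and 32.6 RPKM in the Aloxe3 libraries (log2 fold change 0.036, SE 0.048, limma adjusted p = 0.794, leave-one-out -0.0030 without β-gal replicate 1 to 0.081 without β-gal replicate 2), again with an overlap. Lamp2 had a log2 fold change of 0.018 (leave-one-out -0.011 without Aloxe3 replicate 8 to 0.050 without Aloxe3 replicate 9).

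Reads of some of these genes could not be told from those of other genes. Of the transcript stretches of 50 bases, the length of a read, over 10% also occur in another gene for 9 of the 49 genes: Ctsd (32.4%), Ctsl (26.3%), Atp6v1g1, Sgsh (18.5%), Ctsb (12.1%), Ctsa (11.6%), Atp6v1f (11.2%), Atp6v0c and Hexa (10.6%), in GENCODE M21. For 18 genes none does. Ctsd overlaps Gm49369 on its own strand, Sgsh, Ctsb, Ctsa and Hexa overlap genes on the opposite strand, and Ctsl overlaps genes on both, where the library protocol names no step that keeps the strand. Atp6v1g1, Atp6v1f and Atp6v0c overlap no exon of another gene, and their shared stretches occur in transcripts of genes elsewhere. The authors counted uniquely aligned, unambiguous reads with an earlier annotation than this one, and the effect on the levels was not tested.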

How the data were processed

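The authors aligned single reads of 50 bases from poly-A selected RNA with STAR 2.0.4b (genome build GRCm38.p2 in the submitters' notes), counted reads that aligned uniquely with featureCounts 1.4.5, and deposited RPKM values, which were used as they are. Their step from counts to RPKM is not given in the sources used here. Library sizes and reads per gene were derived from the whole-number steps of the values (tolerance 0.02 reads), and derived reads gave 99.9% of each library. In the shallowest library 1 read on 1 kb is worth 0.0392 RPKM. Lengths came from GENCODE M21 (GRCm38) for 27 of the 49 genes and were the smallest fitting length for the other 22, so that their reads are known up to a factor. Of 41388 gene identifiers 40340 matched a GENCODE M21 symbol.

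Genes whose mean reached 0.5 RPKM (12693) were fitted on the log2(RPKM + 1) scale by limma (version 3.58.1, R 4.3.3), using lmFit and eBayes with a trend, with 3 libraries against 3, two-sided tests and Benjamini-Hochberg adjustment at 0.05. A fold change on this scale understates that of low genes. With 3 against 3, exact permutation of the libraries reaches at best p = 0.1. Class values are medians over genes and were given no p. The genes, classes and further lists were chosen with earlier results of these data known. Named with values in every library are genes with an unadjusted p under 0.05 or groups that do not overlap, the 3 highest and 3 lowest log2 fold changes in each class, and the 2 highest and 2 lowest levels in each class. Of the further genes, those with an unadjusted p under 0.05 and up to 2 at either end of a list were named. Transcript stretches, isoform shares and promoter letters (RefSeq, GRCm38.p6) were read with Python 3.11.15. The scripts were tested on simulated data. Alternatives were a pseudocount of 0.1, no filter, quantile normalization, a filter at 5 RPKM, a common library median, eBayes without trend, voom on derived reads, and leaving out each library. Corrections for GC content and length (splines with 5 degrees of freedom) were added after seeing the data.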

Additional observations from a re-analysis of the deposited data

How the results depend on the processing

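No paired analysis was run, as the labels do not say whether libraries of both groups share an origin. None of the 49 genes passed an adjusted p of 0.05 under any of 15 alternatives in which it was tested. The lowest adjusted p was 0.0908, for Atp6v0c, in limma with voom on derived reads. The filter at a mean of 5 RPKM left 45 of the 49 genes to be tested. Of 402 values of the named genes 381 kept their direction and 21 did not. The log2 fold changes that changed sign were those of Atp6v1c1, Atp6v1d and Galc with the GC correction (-0.0015, -0.0017 and -0.0012), of Ctsd with quantile normalization (0.034), and of Ctsl with the GC correction, length correction, rescaling and quantile normalization (-0.026, -0.0011, -0.011 and -0.018). With each library left out in turn, the ranges that crossed 0 were -0.10 to 0.042 for Atp6v1b2, -0.021 to 0.081 for Atp6v1c1, -0.0013 to 0.065 for Atp6v1d, -0.034 to 0.15 for Ctsf, -0.020 to 0.029 for Ctsl, -0.072 to 0.021 for Idua, -0.0030 to 0.081 for Mcoln1 and -0.016 to 0.044 for Npc2. The median log2 fold change of the V-ATPase stayed below 0 in all of these settings, at -0.055 relative to that of all tested genes as reported, and between -0.018 (quantile normalization) and -0.077 (without Aloxe3 replicate 8) otherwise, with 9 to 13 of 15 genes below 0. Tested genes with a mean of 15 RPKM or more, where all V-ATPase genes lie, themselves had a median log2 fold change of -0.020 as reported. It lay between -0.033 (rescaling) and -0.0057 (quantile normalization) otherwise. The median of the membrane and non-enzyme lumenal genes was -0.032 with the GC correction and -0.016 to 0.026 with a library left out. Over all tested genes 50 were changed, 7 without the filter, 173 with voom, and 6 to 19 with a library left out. The share of tested genes below 0 rose from 47.6% to 53.7% with rescaling, 53.1% with quantile normalization, 54.6% with the GC correction and 54.3% with the length correction, and the median of all genes moved by less than 0.1. The cause of these shifts was not tested. At 3 libraries a group, differences of the sizes within the 95% intervals were not excluded.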

Other observations

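Further lysosomal genes outside the 49 were read from the same fit, by lists written with earlier results of these data known. Of 76 such genes 69 were tested, none passed an adjusted p of 0.05 in limma, 5 had an unadjusted p under 0.05 (1 higher and 4 lower), against 12.7% of all tested genes (7.31% higher and 5.42% lower), and 41 were below 0 with a median log2 fold change of -0.016. Without Aloxe3 replicate 9, 25 of 69 were below 0 and the median was 0.016, and with each library left out in turn 31 of 69 genes changed sign in at least 1 fit. Other V-ATPase isoforms had 4 tested genes, 2 of them below 0. Among these, Atp6v0a2, the a subunit with the highest level here, was at 42.1, 39.8 and 38.6 RPKM in the β-gal libraries and 37.5, 36.0 and 36.6 RPKM in the Aloxe3 libraries (log2 fold change -0.13, SE 0.042, limma adjusted p = 0.300, leave-one-out -0.15 to -0.091), without overlap. Tcirg1, Atp6v0e2 and Atp6v1g2 had log2 fold changes of -0.021, 0.024 and 0.11, with leave-one-out ranges of -0.050 without Aloxe3 replicate 8 to 0.012 without Aloxe3 replicate 9, 0.0051 to 0.041 and 0.020 to 0.21. The 7 genes of V-ATPase assembly and regulation had 6 above 0, but 2 with the GC correction and 3 with quantile normalization, and a median of 0.033 (leave-one-out 0.015 to 0.043, and -0.015 with the GC correction), from -0.0047 for Wdr7 to 0.11 for Rogdi, with 0.0017 for Dmxl2 and 0.050 for Tmem199. Over the fits without 1 library these were -0.071 without Aloxe3 replicate 8 to 0.042 without Aloxe3 replicate 9 for Wdr7, 0.038 to 0.14 for Rogdi, -0.022 without β-gal replicate 2 to 0.018 without β-gal replicate 3 for Dmxl2 and 0.016 to 0.12 for Tmem199.

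Of the other lysosomal hydrolases, 16 of 23 tested genes were below 0 (median -0.041), and 13 of 23 without replicate 9 (median -0.0078), while the median was -0.014 without β-gal replicate 3. Pla2g15, a lysosomal phospholipase, was at 15.1, 15.6 and 16.3 RPKM in the β-gal libraries and 14.8, 13.3 and 13.7 RPKM in the Aloxe3 libraries (log2 fold change -0.16, SE 0.049, limma adjusted p = 0.281, leave-one-out -0.20 to -0.13). Hyal2, a hyaluronidase, was at 55.4, 54.0 and 52.8 RPKM in the β-gal libraries and 50.5, 49.9 and 48.8 RPKM in the Aloxe3 libraries (log2 fold change -0.12, SE 0.034, limma adjusted p = 0.263, leave-one-out -0.13 to -0.10). Neither had groups that overlapped, and Arsb and Ctso were highest in this list with log2 fold changes of 0.078 and 0.077 (leave-one-out 0.020 to 0.12 and 0.021 to 0.12). Of the other membrane proteins, 14 of 21 were below 0 (median -0.022), and 7 of 21 without replicate 9 (median 0.015). Sidt2, a lysosomal membrane protein, was at 108, 107 and 108 RPKM in the β-gal libraries and 102, 101 and 101 RPKM in the Aloxe3 libraries (log2 fold change -0.083, SE 0.031, limma adjusted p = 0.333, leave-one-out -0.090 to -0.078), without overlap. Cd63, a tetraspanin of late endosomes, and Laptm4b had log2 fold changes of -0.11 and -0.088, and Ctns, the cystine exporter, and Mfsd12 had 0.061 and 0.034. Their leave-one-out ranges were -0.14 to -0.057, -0.14 to -0.0056, -0.041 without Aloxe3 replicate 8 to 0.14 without Aloxe3 replicate 9 and -0.016 without Aloxe3 replicate 7 to 0.099 without Aloxe3 replicate 9.

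In mannose-6-phosphate tagging and sorting, 7 of 10 genes were below 0, and 3 of 10 without Aloxe3 replicate 9. The sorting receptors Sort1 and Sorl1 were higher without overlap. Sort1 was at 1.402, 1.53 and 1.46 RPKM in the β-gal libraries and 1.78, 1.73 and 1.61 RPKM in the Aloxe3 libraries (log2 fold change 0.14, SE 0.056, limma adjusted p = 0.373, leave-one-out 0.12 to 0.16). Sorl1 was at 0.868, 0.951 and 0.968 RPKM in the β-gal libraries and 1.13, 1.10 and 1.08 RPKM in the Aloxe3 libraries (log2 fold change 0.13, SE 0.058, limma adjusted p = 0.421, leave-one-out 0.10 to 0.14). Gnptg and M6pr had log2 fold changes of -0.079 and -0.046 (leave-one-out -0.10 to -0.051 and -0.070 to -0.028). Of the MiT/TFE factors, Tfe3 was the most abundant at 12.5, 12.4 and 12.5 RPKM in the β-gal libraries and 12.3, 11.4 and 12.1 RPKM in the Aloxe3 libraries (log2 fold change -0.063, SE 0.040, limma adjusted p = 0.548, leave-one-out -0.083 to -0.032), without overlap. Tfeb, Mitf and Tfec had log2 fold changes of 0.056, 0.041 and 0.089, with overlapping groups and leave-one-out ranges of 0.021 to 0.078, -0.026 without Aloxe3 replicate 7 to 0.10 without Aloxe3 replicate 9 and -0.011 without β-gal replicate 2 to 0.19 without β-gal replicate 1.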
